A study of Homo sapiens with 6 samples.

Results

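Nucleoporins, importins and exportins are the proteins that build the nuclear pore and carry cargo through it. Their genes were followed in HCT116 cells, an epithelial line from a human colorectal carcinoma, 96 h after siRNA transfection. The transfection mix held an anti-CDK4 siRNA pool at 30 nM plus a single anti-CDK6 siRNA at 30 nM (CDK4/6 siRNA), or a non-targeting pool plus a negative control siRNA at 30 nM each (control siRNA). Per the labels' protocols, both were delivered with Lipofectamine RNAiMAX under conditions chosen to keep the cells growing exponentially. Each group had 3 single-channel Affymetrix arrays, called biological replicates in the labels, which do not say whether the cultures were separate. The p-values therefore measure the spread between these arrays. The genes were taken by symbol: NUP, IPO or XPO followed by a digit, KPNA or KPNB at the start, and XPOT, CSE1L and TNPO1. The relative NUP62CL, antisense and divergent transcripts and pseudogenes were left out, and the readthrough symbol IPO11-LRRC70 was counted with IPO11. This gave 44 genes of 19775 on the array, read by 133 probe sets, and the probe set with the highest mean signal stood for each gene.

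The pore is a symmetric channel in the nuclear envelope made of stacked rings of nucleoporins, with flexible repeat-bearing nucleoporins lining its centre. Importins bind cargo in the cytoplasm and release it in the nucleus when they meet the GTPase Ran bound to GTP, whereas exportins bind cargo together with Ran-GTP and release it after GTP hydrolysis in the cytoplasm. Importin alpha proteins are adaptors that link classical nuclear localisation signals to importin beta.

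Levels are given as log2 RMA expression, for which the array medians lay between 5.36 and 5.39. Arrays correlated at 0.998 within groups and at 0.991 to 0.994 between groups, across genes. Both siRNA targets were lower in the CDK4/6 siRNA arrays, CDK6 with a log2 fold change of -1.56 (SE 0.055) and CDK4 with -0.69 (SE 0.082; limma adjusted p = 7.19e-06 and 0.000431). MYC, named in the series title, rose by 0.42 (SE 0.060, limma adjusted p = 0.00101). The RNA was bulk, so a change in some of the cells and a smaller one in all cells cannot be told apart. The epithelial markers EPCAM, KRT8, KRT18, KRT19, CDH1 and CLDN4 had mean levels of 9.50 to 13.27. The intestinal markers VIL1, CDX2, CDX1 and CEACAM5 had 5.06, 5.59, 5.97 and 6.64, close to or within the 3.83 to 6.26 of 8 markers of leukocytes, fibroblasts, endothelium and liver.

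Of the 44 genes, 22 rose and 3 fell in the CDK4/6 siRNA cells (limma, adjusted p under 0.05 over all genes), and 19 were not called. Of all genes 26.8% were called, 14.0% higher and 12.9% lower. Among the 9864 genes with a mean level at or above that of the dimmest called gene of the group, IPO13, 24.8% were called higher and 21.0% lower. The changes were small. The 22 rises ran from 0.21 to 0.74 on the log2 scale (1.16-fold to 1.67-fold) with a median of 0.34. No gene of the group changed 2-fold on the probe set that stood for it, though a dimmer NUP98 probe set rose by 1.15. The median log2 fold change was 0.20 over the 44 genes and -0.0011 over all genes. All 3 CDK4/6 siRNA arrays lay above all 3 control arrays for 28 of the 44 genes and below them for 6, against 20.6% and 20.3% of all genes. These shares include dim genes and were not matched for level. Nucleoporins contributed 10 rises and 1 fall among 22 genes, and importins and exportins 12 rises and 2 falls among 22. The counts by role below cover 2 to 9 genes each. They are to be read beside the shares of called genes given above, against which no role was tested.

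**Figure D1:**
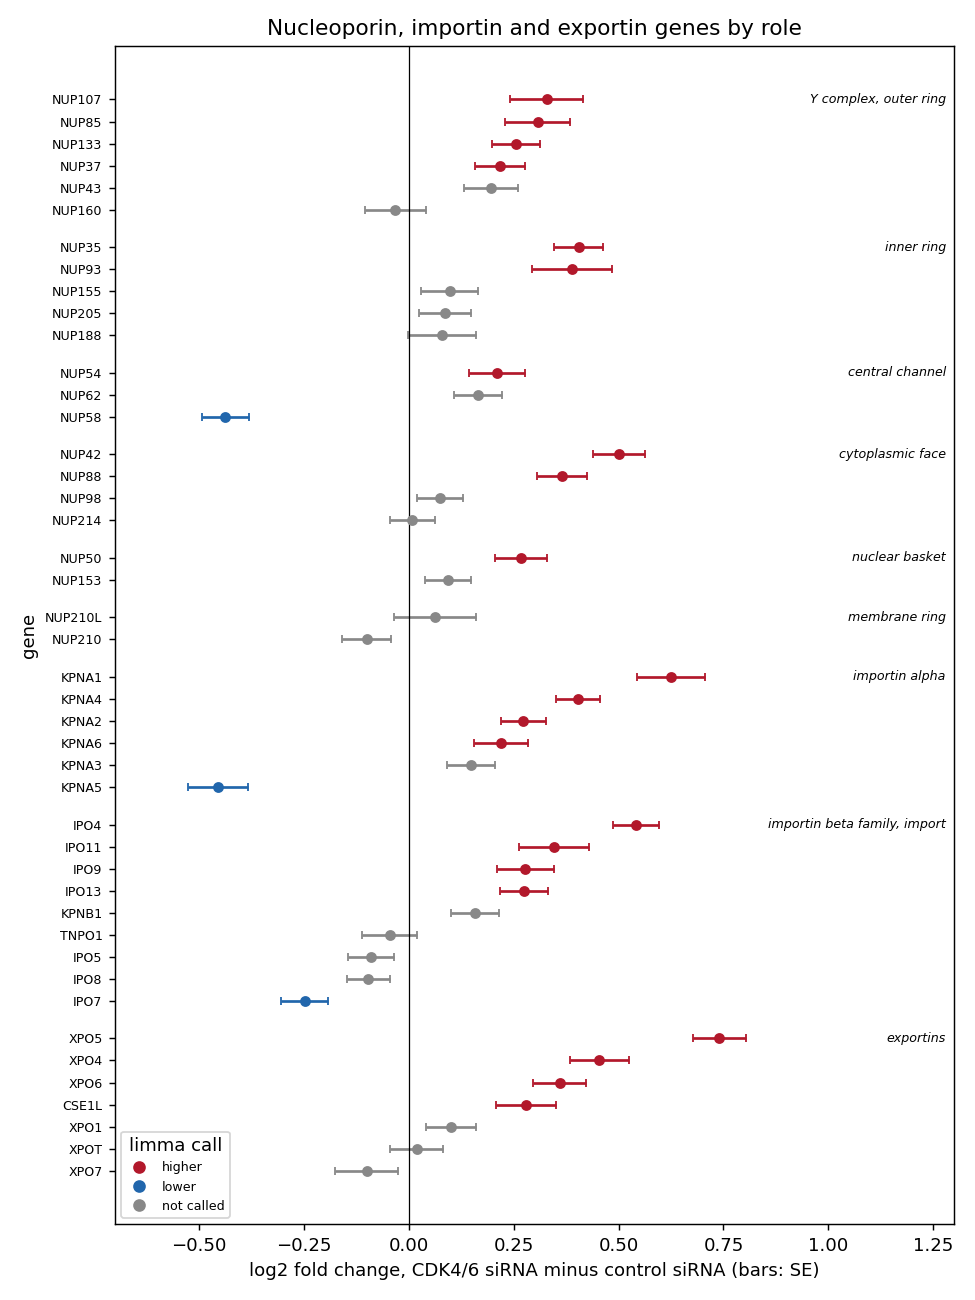
Log2 fold change (CDK4/6 siRNA minus control siRNA) of the 44 genes on the horizontal axis, grouped by role down the page. Points are fitted values, bars are the standard error (n = 3 arrays per group), and colour marks the limma call. Rises ran from 0.21 for NUP54 to 0.74 for XPO5, and the 3 falls were KPNA5, NUP58 and IPO7.

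The size of these counts depended on the reference level of the arrays. RMA equalises the arrays, so each difference is measured against the typical probe set. The hybridisation spike-ins, control RNAs added to each array, averaged 10.15 in the CDK4/6 siRNA arrays and 10.25 in the control arrays. They were added at hybridisation and read after RMA, so they cannot measure the RNA per cell. Scaling to them is only another choice of reference. When these were used for scaling, the all-gene median moved to 0.11, 29 genes of the group were called higher and 2 lower, and 78.2% of all called genes were higher, against 52.1% as deposited. The fall of IPO7 lost its call under that scaling (-0.14, limma adjusted p = 0.138), while the falls of KPNA5 and NUP58 did not.

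Control replicate 3 was often the lowest array, and not in this gene group alone. It was the lowest of the 6 arrays for 28 of the 44 genes, against 24.9% of all genes, which include falls. Among the 38 measured transport genes with other names, given further below, it was the lowest for 19. Of the 22 genes of the group that rose, it was the lowest for 19. Their groups did not overlap, so their lowest array could only be 1 of the 3 controls, and the 24.9% is no baseline for them. Without that array 20 genes were called higher and 3 lower, and the median of the 44 genes was 0.16. The mean of the 44 genes was 9.58, 9.59 and 9.61 in the CDK4/6 siRNA arrays, against 9.44, 9.45 and 9.36 in control replicates 1, 2 and 3. The groups did not overlap in that mean.

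**Figure D2:**
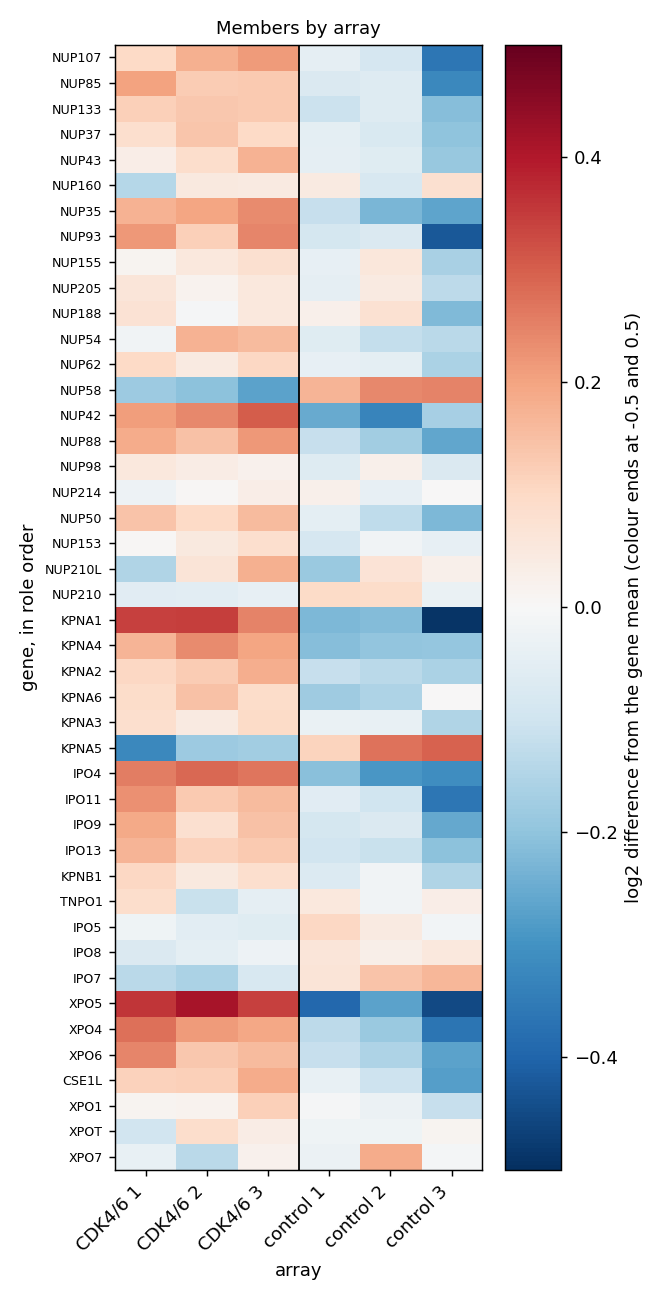
Each row is a gene in role order and each column an array. Colour gives the difference of the array's log2 value from the mean of the 6 arrays for that gene, with the scale ending at -0.5 and 0.5. The control replicate 3 column is the lowest in 28 of 44 rows, and the rows of NUP58, KPNA5 and IPO7 run the other way.

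Exportins held the largest rise of the group, with 4 of 7 genes higher, 0 lower and a median of 0.28. XPO5 (exportin 5), which carries microRNA precursors out of the nucleus, had levels of 9.35, 9.40 and 9.33 in the CDK4/6 siRNA arrays, against 8.60, 8.72 and 8.54 in the control arrays. The arrays of each group lay close together and far from the other group. XPO5 rose by 0.74 (1.67-fold, SE 0.064, limma adjusted p = 0.000111). Of its other probe sets, 1 rose by 0.76 and the dimmest gave 0.27 and was not called.

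XPO4, an exporter of the translation factor EIF5A that also imports some transcription factors, had 8.87, 8.80 and 8.78 in the CDK4/6 siRNA arrays, against 8.46, 8.41 and 8.23 in the control arrays. It rose by 0.45 (1.37-fold, SE 0.071, limma adjusted p = 0.00163), and its control values were more spread than its CDK4/6 siRNA values, with control replicate 3 the lowest. Its other probe set, at a mean level of 7.02, gave 0.074 with overlapping groups and was not called. XPO6, which exports actin with profilin, rose by 0.36, and its second probe set by 0.25. CSE1L, the exportin that returns importin alpha to the cytoplasm, rose by 0.28, and by 0.62 on another probe set with a mean level of 10.32. The probe set between them in brightness gave 0.21 and the dimmest gave -0.040, neither called. XPO7, an exportin of broad cargo range, gave -0.10 and was not called.

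XPO1 (CRM1), the receptor for leucine-rich nuclear export signals and the target of the drug selinexor, was among the brightest genes that were not called. Its levels were 12.11, 12.11 and 12.22 in the CDK4/6 siRNA arrays, against 12.09, 12.07 and 11.98 in the control arrays. The groups did not overlap, but the difference of 0.10 (SE 0.060, limma adjusted p = 0.277) did not pass the threshold. Under the spike-in scaling XPO1 was called higher (0.21). A dimmer XPO1 probe set, at a mean level of 6.82, gave -0.27 with no overlap the other way and was not called (limma adjusted p = 0.0772 over all probe sets). For XPOT, the exportin of transfer RNA, the answer differed by probe set. Its brightest probe set gave 0.019 (SE 0.063), with overlapping values of 10.55, 10.73 and 10.69 in the CDK4/6 siRNA arrays and 10.62, 10.63 and 10.66 in the control arrays. The other probe set, at a mean level of 9.02, had 9.45, 9.31 and 9.37 in the CDK4/6 siRNA arrays, against 8.69, 8.78 and 8.49 in the control arrays. It rose by 0.73 (SE 0.085, limma adjusted p = 0.000533 over all probe sets), with no overlap between the groups.

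The importin alpha adaptors went both ways, with 4 of 6 genes higher, 1 lower and a median of 0.25. KPNA1 (importin alpha 5) had 8.57, 8.58 and 8.48 in the CDK4/6 siRNA arrays, against 8.00, 8.01 and 7.74 in the control arrays. It rose by 0.62 (1.54-fold, SE 0.081, limma adjusted p = 0.000657), with control replicate 3 the lowest array. All 6 of its probe sets were positive, from 0.14 to 0.62, and 3 were called higher.

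KPNA4 (importin alpha 3), an adaptor for NF-kappaB subunits, had 9.97, 10.04 and 10.00 in the CDK4/6 siRNA arrays, against 9.59, 9.61 and 9.61 in the control arrays. Both groups were tight, and KPNA4 rose by 0.40 (1.32-fold, SE 0.052, limma adjusted p = 0.000614), with 3 of 5 probe sets called higher. KPNA2 (importin alpha 1), the adaptor best known as a proliferation-linked gene, rose by 0.27 on its brightest probe set and gave 0.079 on the other, which was not called. KPNA6 rose by 0.22 and KPNA3 gave 0.15 without a call.

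KPNA5 (importin alpha 6), of the same sequence subfamily as KPNA1 and KPNA6, was the adaptor that fell. It had 8.31, 8.45 and 8.46 in the CDK4/6 siRNA arrays, against 8.75, 8.91 and 8.93 in the control arrays. Its log2 fold change was -0.45 (fold 0.730, SE 0.071, limma adjusted p = 0.00165). A second probe set of nearly the same signal gave -0.46 and was called, and a dimmer one gave -0.026 and was not.

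Among the import receptors of the importin beta family taken by symbol 4 of 9 rose and 1 fell, with a median of 0.16. IPO4, an importer of histones H3 and H4, had 8.11, 8.15 and 8.13 in the CDK4/6 siRNA arrays, against 7.65, 7.57 and 7.55 in the control arrays. It rose by 0.54 (1.45-fold, SE 0.055, limma adjusted p = 0.000212), and no array of a group came near the other group. IPO11, an importer of ubiquitin-conjugating enzymes, rose by 0.35, and another of its probe sets by 0.28. IPO11 was read by a probe set shared with its readthrough transcript, and the dim probe set that carries its symbol alone gave 0.012 and was not called. IPO9, an importer of histones H2A and H2B, rose by 0.28, with 1 of its 4 probe sets called, and IPO13, which works in both directions, rose by 0.27.

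KPNB1 (importin beta), the main import receptor and the partner of importin alpha, had 12.26, 12.21 and 12.24 in the CDK4/6 siRNA arrays, against 12.09, 12.14 and 12.01 in the control arrays. The groups did not overlap and the difference was 0.16 (SE 0.058, limma adjusted p = 0.0752), short of the threshold, which it passed with the spike-in scaling (0.27). Its 6 probe sets gave 0.00088 to 0.16, and 0 of them were called. TNPO1 (transportin 1), the receptor for many RNA-binding proteins, had 11.24, 11.05 and 11.11 in the CDK4/6 siRNA arrays and 11.21, 11.14 and 11.19 in the control arrays. These overlapped, with a difference of -0.046 (SE 0.065, limma adjusted p = 0.683), and 0 of its 10 probe sets were called.

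IPO7, which imports ribosomal proteins and, with importin beta, linker histone, fell. It had 11.03, 11.01 and 11.09 in the CDK4/6 siRNA arrays, against 11.23, 11.31 and 11.33 in the control arrays. The log2 fold change was -0.25 (fold 0.842, SE 0.056, limma adjusted p = 0.0107), without overlap. Its next probe sets gave -0.23, which was called, and -0.20, while the dimmest gave 0.17 with groups that did not overlap. Neither of these was called, and IPO7 lost its call when its probe sets were averaged (-0.13). IPO5, another importer of ribosomal proteins, had 10.87, 10.84 and 10.83 in the CDK4/6 siRNA arrays, against 11.00, 10.94 and 10.88 in the control arrays. The groups did not overlap, but the difference of -0.090 (SE 0.056, limma adjusted p = 0.297) was not called. All 5 IPO5 probe sets were negative and the second brightest passed at -0.27 (limma adjusted p = 0.0162 over all probe sets). IPO8, a relative of IPO7, gave -0.097 and was not called.

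**Figure D3:**
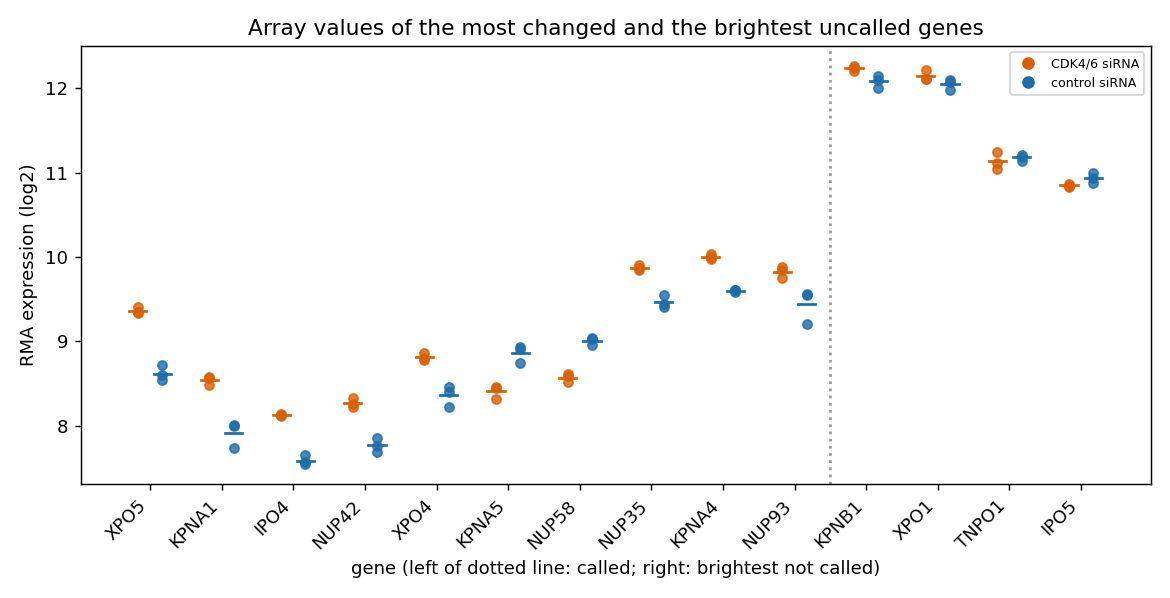
RMA expression (log2) in each array for the 10 called genes with the largest change, left of the dotted line, and the 4 brightest genes that were not called, right of it. Orange points are CDK4/6 siRNA arrays, blue points control arrays, and bars are group means (n = 3). The groups are apart for all 10 genes on the left, with KPNA5 and NUP58 lower in the CDK4/6 siRNA arrays, and overlap for TNPO1.

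In the pore itself the Y complex is the scaffold of the outer rings. Of its 6 genes taken by symbol 4 were higher and 0 lower, with a median of 0.24. Subunits under other names, such as SEH1L, are counted further below. NUP107 rose by 0.33, NUP85 by 0.31, NUP133 by 0.26 and NUP37 by 0.22, with 0.72 on a dimmer NUP37 probe set. Control replicate 3 was the lowest array for 5 of the 6 genes. NUP43 gave 0.20 and just missed the threshold (SE 0.065, limma adjusted p = 0.0540). NUP160 gave -0.032 on its brightest probe set, with overlapping groups. Its 2 dimmer probe sets, at mean levels of 6.59 and 6.02, rose by 0.50 and 0.46 (limma adjusted p = 0.00198 and 0.00612 over all probe sets).

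Of 5 inner ring genes, whose products form the core scaffold next to the membrane, 2 rose, 0 fell and the median was 0.097. NUP35, which contacts the membrane, had 9.84, 9.87 and 9.91 in the CDK4/6 siRNA arrays, against 9.55, 9.44 and 9.41 in the control arrays. It rose by 0.40 (1.32-fold, SE 0.059, limma adjusted p = 0.00117), with the groups well apart. NUP93, the linker that holds the inner ring together, had 9.85, 9.75 and 9.88 in the CDK4/6 siRNA arrays, against 9.55, 9.56 and 9.21 in the control arrays.

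The rise of NUP93 by 0.39 (1.31-fold, SE 0.095, limma adjusted p = 0.0149) had the second largest error of the group, and control replicate 3 lay well below the other controls. Its dim second probe set gave -0.051 and was not called. The large scaffold genes NUP155 (0.097), NUP205 (0.087) and NUP188 (0.080) were not called, and their groups overlapped.

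The 3 channel nucleoporins, which work as one trimer whose repeats fill the pore, did not move together. NUP58 had 8.61, 8.59 and 8.52 in the CDK4/6 siRNA arrays, against 8.96, 9.03 and 9.04 in the control arrays. Its log2 fold change was -0.44 (fold 0.739, SE 0.056, limma adjusted p = 0.000590), and all 4 of its probe sets were called lower, from -0.71 to -0.33. Its partner NUP54 rose by 0.21, the smallest rise that was called. NUP62, the remaining subunit, gave 0.17 without a call (SE 0.057, limma adjusted p = 0.0635), although its groups did not overlap.

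On the cytoplasmic face, where messenger RNA is released, 2 of the 4 genes taken by symbol rose, 0 fell and the median was 0.22. NUP42, a docking site for the export factor GLE1, had 8.23, 8.26 and 8.33 in the CDK4/6 siRNA arrays, against 7.77, 7.69 and 7.85 in the control arrays. NUP42 rose by 0.50 (1.42-fold, SE 0.062, limma adjusted p = 0.000536), with the groups apart, and control replicate 2, not 3, was its lowest array. NUP88, which binds NUP214 and NUP98 there, rose by 0.37, and its dim second probe set gave 0.091 without a call. NUP214 gave 0.0085 on its brightest probe set and 0.58 on its dimmest, at a mean level of 6.60, where the groups did not overlap (limma adjusted p = 0.00439 over all probe sets).

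NUP98 is cut after translation into a repeat-bearing nucleoporin and the Y complex subunit NUP96. Its brightest probe set gave 0.074 (SE 0.055, limma adjusted p = 0.387) with overlapping groups. Another gave 0.26, and the dimmest, at a mean level of 7.68, had 8.25, 8.18 and 8.34 in the CDK4/6 siRNA arrays, against 7.25, 7.15 and 6.91 in the control arrays. That probe set rose by 1.15 (SE 0.093, limma adjusted p = 0.000138 over all probe sets), the largest difference among the 133 probe sets. Which NUP98 transcripts each probe set reads was not tested.

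At the nuclear basket NUP50, a cofactor of import that binds importin alpha, rose by 0.27 on its brightest probe set and by 0.30 on the next, while its 4 dimmer probe sets gave 0.038 to 0.18 and were not called. NUP153, which anchors the basket, gave 0.093 on its brightest probe set and -0.34 on another, and 0 of its 3 probe sets were called. Of the membrane ring only NUP210 and NUP210L were taken by symbol, and neither was called. The membrane nucleoporin NDC1, under another name, is given further below. NUP210, a pore glycoprotein of the membrane, gave -0.10 without overlap, and its relative NUP210L gave 0.063 at a mean level of 3.43, the dimmest of the group. The other 43 genes lay above the median level of all genes on the array.

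Probe sets of a gene were compared in a fit over all 54613 probe sets that were not controls, where the adjustment is stricter than over genes. Of the 133 probe sets 38 were called higher and 9 lower, against 8.86% and 8.17% of all probe sets, dim ones included. In 0 of the 36 genes with several probe sets were calls made in both directions. For XPOT, NUP98, NUP160 and NUP214 the brightest probe set gave no call and another was called higher, and for IPO5 another was called lower. KPNA6 and NUP37, called over genes, also had an uncalled brightest probe set in this stricter fit (limma adjusted p = 0.0607 and 0.0514), with 3 other KPNA6 probe sets and 1 other NUP37 probe set called higher. None of the 3 NUP54 probe sets was called in it. When a gene's probe sets were averaged instead, XPOT (0.37), NUP98 (0.50), NUP160 (0.31), NUP214 (0.19) and NUP62 (0.15) were called higher, and NUP54 (0.14), NUP93 (0.17) and NUP133 (0.14) lost their calls.

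**Figure D4:**
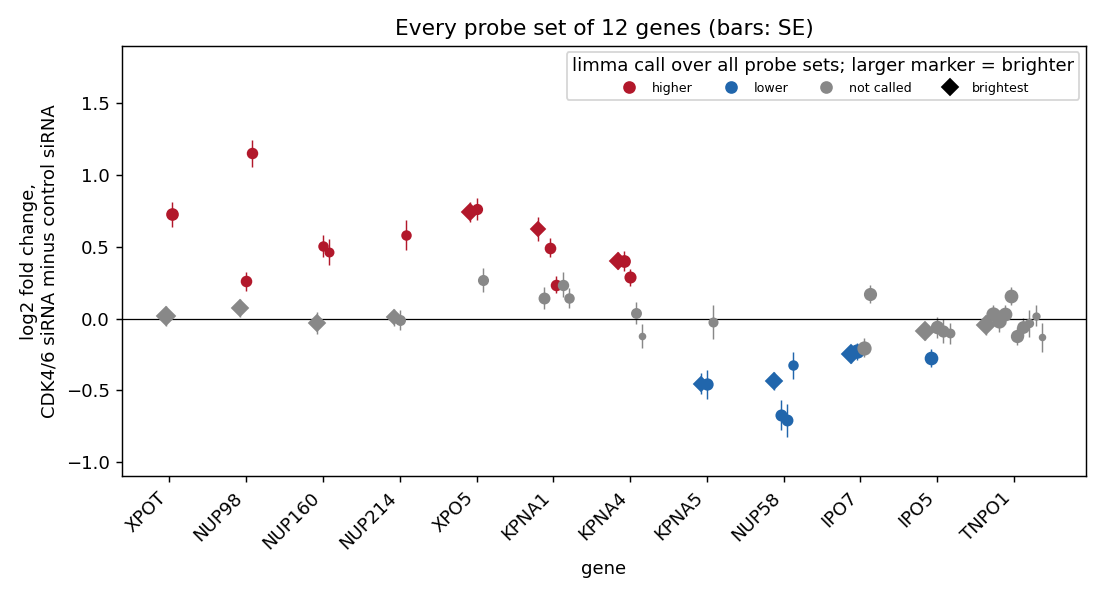
Log2 fold change (CDK4/6 siRNA minus control siRNA) of every probe set of 12 genes, brightest at the left within a gene. Diamonds are the probe sets that stand for the gene, marker size grows with mean level, bars are the standard error (n = 3 arrays per group), and colour is the limma call over all probe sets. XPOT, NUP98, NUP160 and NUP214 have an uncalled diamond and called dimmer probe sets, while all 4 NUP58 probe sets are called lower.

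Several rises lost their call when 1 array was left out. Such a fit has fewer arrays, so a lost call does not show that the rise rested on that array. CSE1L lost its call without CDK4/6 siRNA replicate 3 (0.26, limma adjusted p = 0.0648), NUP93 without the same array (0.36, 0.0510), and NUP85 (0.28, 0.0582) and IPO9 (0.25, 0.0504) without CDK4/6 siRNA replicate 1. NUP107 lost it without CDK4/6 siRNA replicate 2 (0.32, 0.0552) or 3 (0.30, 0.0701). KPNA6, NUP37 and NUP54 lost it when any of several arrays was left out. KPNA6 was called only with all arrays or without control replicate 3, and otherwise gave 0.18 to 0.23. NUP37 kept its call without control replicate 1 and otherwise gave 0.17 to 0.23. NUP54 kept it in the fit without CDK4/6 siRNA replicate 1 alone and otherwise gave 0.18 to 0.23. The 10 called genes with the largest changes other than NUP93 were called with any 1 array left out.

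Genes of nuclear transport with other names were counted from a list. Of 5 measured genes of the Ran cycle 4 rose, 0 fell and the median was 0.27. RCC1, the exchange factor that loads Ran with GTP on chromatin, rose by 0.51 (SE 0.055, limma adjusted p = 0.000263), RAN itself by 0.24 and RANBP3, a cofactor of XPO1, by 0.33. Of 11 further pore genes 5 rose and 0 fell, with a median of 0.087. Among the rises were the membrane nucleoporin NDC1 (0.40), the Y complex subunit SEH1L (0.36) and RAE1 (0.26), which pairs with NUP98. SEC13 gave -0.14 with no overlap between the groups and was not called. Of 7 other transport receptors 3 rose and 0 fell, with a median of 0.095, led by NXT1 (0.56), the partner of the messenger RNA receptor, with RANBP6 (0.37) and TNPO2 (0.24). Of 15 messenger RNA export factors 4 rose and 1 fell, with a median of 0.17. DDX19A, a helicase that acts with GLE1 at the cytoplasmic face, rose by 0.84, ALYREF, an adaptor on messenger RNA, by 0.52, and DDX39A by 0.27. Over the 38 measured genes of these lists 16 were called higher and 1 lower, or 42.1% and 2.63%, beside 14.0% and 12.9% of all genes. Among genes at or above the level of IPO13 the shares were 24.8% and 21.0%. The lists were chosen with earlier results of these data known, so their shares are not independent support. The messenger RNA export list had 26.7% called higher, close to that 24.8%.

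Promoters of the group were searched for sites of factors tied to the series title and to the targeted kinases. RefSeq windows of 300 bases (GRCh38.p14, 250 before and 50 after the gene start) were held for 39 of the 44 genes. The E-box CACGTG, bound by MYC with MAX, stood in 5 of 39 windows (12.8%), against 7.43% of 27305 promoters. Of these 5, IPO4 and NUP50 were called higher, IPO7 lower, and KPNA3 and NUP188 were not called, so 2 of the 21 promoters of genes that rose held it. The E2F site in the form TTCCCGC stood in 8 windows (20.5%), against 6.56% of all promoters. The 8 genes were NUP107, NUP85 and IPO11, called higher, NUP58, called lower, and KPNA3, NUP160, NUP210 and TNPO1, not called. It thus stood in 3 of the 21 promoters of genes that rose and in 4 of 16 of uncalled genes. The shares of all promoters were not matched for expression level. The form TTGGCGC stood in 7.69%, against 3.12%. The cell cycle homology region TTTGAA, bound by the MuvB core, stood in 23.1%, against 15.4%. Both strands were searched, and a match describes the letters and not binding.

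The 250 bases before the gene start, 5′ to 3′ on the gene's strand, are printed for XPO5, the largest rise, for IPO4, a rise with an E-box, and for IPO7, a fall with an E-box. Capitals mark the motifs above. The XPO5 stretch (chr6:43576039-43576288, minus strand) holds none of them. The IPO4 stretch (chr14:24188817-24189066, minus strand) holds the E-box from base -29, and the IPO7 stretch (chr11:9384402-9384651, plus strand) holds TTTGAA from -182, the E-box from -138 and TTGGCGC from -15.
XPO5: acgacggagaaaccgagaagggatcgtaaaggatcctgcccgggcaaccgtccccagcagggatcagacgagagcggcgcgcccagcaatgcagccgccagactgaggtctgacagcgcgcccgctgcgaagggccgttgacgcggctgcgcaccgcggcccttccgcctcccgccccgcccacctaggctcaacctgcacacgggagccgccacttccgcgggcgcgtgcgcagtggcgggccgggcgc
IPO4: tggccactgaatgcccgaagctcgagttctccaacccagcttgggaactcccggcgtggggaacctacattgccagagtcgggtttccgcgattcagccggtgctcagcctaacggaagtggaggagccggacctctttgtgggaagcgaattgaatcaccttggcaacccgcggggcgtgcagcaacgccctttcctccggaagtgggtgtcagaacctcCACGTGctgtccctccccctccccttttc
IPO7: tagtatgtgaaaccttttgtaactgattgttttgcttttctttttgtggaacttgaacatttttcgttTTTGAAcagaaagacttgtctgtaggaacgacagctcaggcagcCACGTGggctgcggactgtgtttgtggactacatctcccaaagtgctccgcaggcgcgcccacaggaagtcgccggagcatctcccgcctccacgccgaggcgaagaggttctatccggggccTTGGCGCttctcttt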

How the data were processed

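Per the submitters' processing notes, the deposited values come from RMA, on a log2 scale, a method of background correction, quantile normalisation between arrays and probe summary. Its version is not given in the sources used here. The number of arrays limits the precision.

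The table held 54675 probe sets, 62 of them controls. Names came from the platform annotation, which gave 1 symbol to 41097 probe sets and several to 1801. The brightest probe set with 1 symbol stood for each gene, and for the genes described here a probe set with several symbols could also stand, which changed only IPO11. CDK4/6 siRNA minus control siRNA was tested in limma (3.58.1, run in R 4.3.3; lmFit, then eBayes). The model held the group alone, p-values were adjusted by Benjamini-Hochberg over 19775 genes, and dim genes stayed in. All genes of the group are named, the 10 called genes with the largest change and the 4 brightest uncalled ones array by array. The members and lists were chosen with earlier results of these data known. Of 42 companion genes 38 had a probe set with 1 symbol. The labels do not say that same-numbered arrays of the groups share a day or batch, so the main fit used no block. The alternatives were other scalings between arrays, other probe set choices, a filter on dim genes, other variance models, a stricter threshold, a replicate block and each array left out.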

Additional observations from a re-analysis of the deposited data

How the results depend on the processing

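Of the 25 called genes, 11 kept their call in every alternative run for them, 17 for 8 genes and 16 for NUP42, XPO5 and XPO6, which have no plain-name probe set. Rises numbered 13 without variance moderation and 11 at an adjusted p under 0.01, against 22, and 16 to 20 with 1 array left out, while falls numbered 2 to 4 in all alternatives. On plain-name probe sets, which 38 genes have, 15 rose and 4 fell, and 1 of the 2 siRNA targets was called, since CDK4 has no such probe set. All genes called numbered 3325 at an adjusted p under 0.01, against 5308. Called probe sets numbered 30 without variance moderation and 24 at an adjusted p under 0.01, against 47, and 29 to 38 with 1 array left out. NUP160 turned from -0.032 to 0.31 with the mean of its probe sets, of which only dimmer ones rose. Deviations of same-numbered arrays correlated at -0.010, -0.12 and -0.0065. These values show no shared deviation, but with 3 arrays per group they cannot exclude that same-numbered arrays were handled together. With the replicate block 4739 genes were called, 19 of the group higher and 3 lower. RMA compresses changes of dim probe sets, and no detection calls were used.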
